A study of Homo sapiens with 6 samples.

Results

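The nuclear genes of the mitochondrial respiratory chain and ATP synthase were compared between SiHa cells with and without BRCA1 overexpression. Members were the nuclear protein-coding genes whose symbol names a subunit of complex I (NDUFA, NDUFB, NDUFC, NDUFS and NDUFV genes), complex II (SDHA to SDHD), complex III (CYC1 and UQCR genes), complex IV (COX4 to COX8 genes) or complex V (ATP5 genes). The symbols, taken from GENCODE 29, gave 91 members among the 58174 genes of the table. They comprised 37 genes of complex I, 4 of complex II, 10 of complex III, 19 of complex IV and 21 of complex V. NDUFA4 and NDUFA4L2 carry a complex I name and were placed in complex IV, where the NDUFA4 protein is found.

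SiHa is an established human line grown from a cervical squamous cell carcinoma. The OV-BRCA1 group (3 samples) was transfected with the GV230-BRCA1 plasmid and the NC group (3 samples) with the empty GV230 plasmid, both with Lipofectamine 3000, and RNA was taken after 48 h. Both groups therefore carried the vector and the transfection reagent, and the groups differed in the BRCA1 insert. Transfection was transient and the RNA came from the whole culture, so cells that took up no plasmid were included. In such bulk RNA, fewer cells of a kind and less RNA per cell cannot be told apart.

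The respiratory chain sits in the inner mitochondrial membrane. Complex I oxidizes NADH and complex II oxidizes succinate, and both pass electrons to coenzyme Q. Complex III moves the electrons to cytochrome c, and complex IV passes them to oxygen. Complexes I, III and IV pump protons, and complex V, the ATP synthase, lets the protons return and makes ATP. Most subunits are encoded in the nucleus and imported, while a small set of hydrophobic subunits is encoded by mitochondrial DNA, so the complexes are built from the products of both genomes. Many of the nuclear genes have promoters with sites for NRF1 or for the ETS factor GABP.

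BRCA1 was checked first. Its FPKM (fragments relative to transcript length and to all mapped fragments of the sample) was 35.7, 40.8 and 34.9 in the OV-BRCA1 samples and 20.1, 14.9 and 21.7 in the NC samples. The log2 fold change was 0.95 (SE 0.14, adjusted p = 0.00373). Log2 values correlated between samples of a group with r of 0.985 to 0.986 across genes and between groups with r of 0.951 to 0.955. Depth, estimated from the steps of low FPKM values, was 13.9–16.7 M fragments (OV-BRCA1) and 16.3–20.3 M (NC). Between 33.9% and 40.9% of these low values were whole numbers of fragments to within 0.1, so counts were not recovered and no counting interval is given. The epithelial keratins KRT8, KRT17 and KRT18 had mean FPKM of 192 to 1434, whereas the squamous markers KRT5 and TP63 were below 0.4 in every sample. The markers of other cell types were 6 immune, 6 fibroblast and 4 endothelial genes, and PTPRC, LUM and VWF were among those listed at 0 in all samples. Summed over all listed genes, tested or not, the markers went from an FPKM of 22.2–24.0 in NC to 31.3–37.2 in OV-BRCA1 for the immune list and from 6.15–6.75 to 3.31–3.82 for the fibroblast list, which was mostly COL1A1. The epithelial list stood at 2066–2111 in NC and 1717–1861 in OV-BRCA1 and the endothelial list at 0.69–0.833 and 0.815–1.48, with overlap. Only 2 immune markers could be tested, and they went opposite ways, with CD68 higher and CD14 lower, by log2 fold changes of 2.63 and -1.22 (adjusted p = 9.75e-05 and 5.94e-04). COL1A1, which was lower (log2 fold change -0.79), was the only fibroblast marker tested. Of 7 epithelial markers tested, KRT8, KRT18 and EPCAM were higher and KRT17 was lower. KRT6A was also called higher, but it passed the filter only through the OV-BRCA1 group and had to be. The part of these markers in the results was not tested.

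By the median of their genes, all 5 complexes were lower in the OV-BRCA1 group, with small changes, except that the complex II median was 0.04 with the most abundant transcript of each gene. Together the tested members summed to an FPKM of 7152, 6771 and 6885 in the OV-BRCA1 samples and 8179, 8342 and 8606 in the NC samples, 17.2% lower. No sample of one group reached the range of the other. Of the 91 members, 85 reached an FPKM of 0.5 in 3 or more samples and were tested. The 6 others were restricted isoforms at or near 0, described with the isoforms. At an adjusted p below 0.05, 45 members were lower (52.9%, against 18.9% of all 16321 genes tested) and 2 were higher (2.35%, against 16.4% of all genes). One of these 2, COX6B2, passed the filter only through the OV-BRCA1 group and had to be higher. Without the restricted isoforms and readthrough genes, 44 of 80 members were lower and 1 was higher. Of the 85 tested members, 38 did not pass, and 35.3% of all genes passed in either direction. Tested members were more abundant than all genes tested, with a median of the mean FPKM of 69.5 against 6.69. Their most abundant transcripts were shorter, with a median of 844 bases against 2144. The shares of all genes were not matched for abundance or length. In 50 tested members every OV-BRCA1 sample lay below every NC sample (58.8%, against 27.4% of all genes), and in 5 every one lay above (against 23.4%). These 5 were NDUFV3, SDHB, UQCRFS1, COX6B2 and ATP5F1C.

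In the FPKM test used here, the changes were below the size used for differentially expressed genes (DEGs). None of the 85 members reached an absolute log2 fold change above 1 with an adjusted p below 0.05. Of all genes, 2.89% were upregulated and 1.1% downregulated DEGs. This holds for log2(FPKM + 1) values and does not cover the study's own count test, which was not repeated. The median log2 fold change of tested members was -0.31 (interquartile range -0.42 to -0.15, extremes -0.83 and 0.66), beside -0.04 for all genes tested and -0.01 for nuclear protein-coding genes. In 70 of the 85 members the log2 fold change was negative. The median stayed negative under both other scalings, at -0.28 with median-of-ratios factors and -0.35 with samples scaled to the same nuclear protein-coding total. The 45 lower calls became 23 when only the most abundant transcript of each gene was used, 22 of them shared with the 45. Of the 45, 17 were called lower in all 15 alternatives in which they could be tested.

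**Figure D1:**
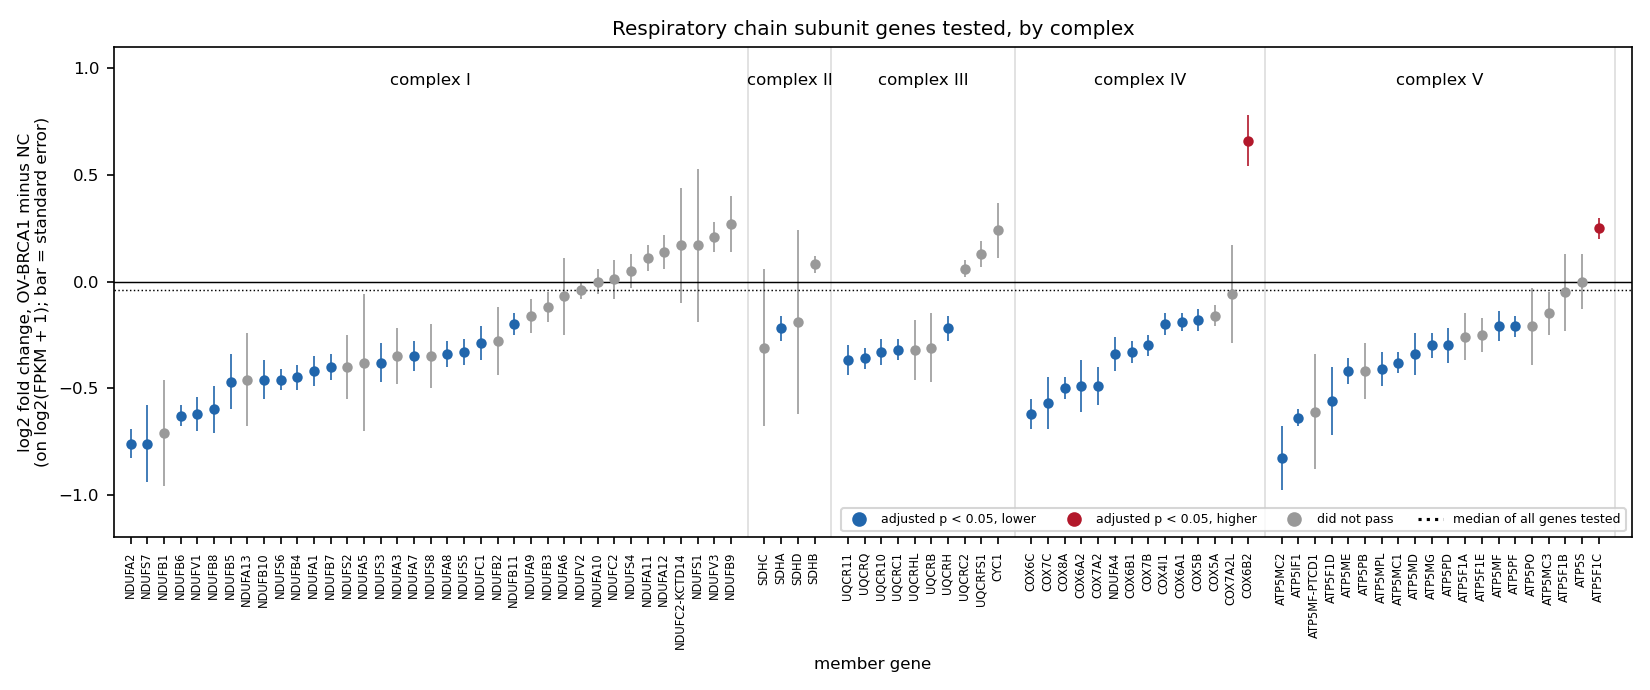
Log2 fold change (OV-BRCA1 minus NC, on log2(FPKM + 1)) of the 85 tested members by complex, with the standard error as bars and the median of all genes tested (-0.04) as a dotted line. Blue marks the 45 members called lower, red the 2 called higher (COX6B2 and ATP5F1C) and grey the 38 that did not pass, and 70 of the 85 points lie below 0.

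The upstream sequences of 68 of the 91 members were found among the RefSeq promoters of GRCh38.p14. They were searched on both strands, over the 250 bases before the start, for the NRF1 core GCGCATGC (reverse complement GCATGCGC) and the ETS core CCGGAAG (reverse complement CTTCCGG). A site that reads the same on both strands counts as overlapping copies. The NRF1 core stood in 12 of the 68 members (17.6%) and in 768 of all 27305 promoters (2.81%). The ETS core stood in 16 members (23.5%) and in 2407 of all promoters (8.82%). The promoters compared were not matched to the members for expression or GC content. A match is a stretch of letters and does not show a bound site. Members with the NRF1 core had a median log2 fold change of -0.20 (8 lower and 1 higher of 12 tested) and those without it -0.31 (29 lower and 1 higher of 54). Members with the ETS core had a median of -0.32 (12 lower and none higher of 16), against -0.30 without it (25 lower and 2 higher of 50). These medians are descriptions without a test.

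Of the promoters, 4 are shown 5′ to 3′ on the strand of the gene, with the cores in capitals, because they carry the cores in genes with different changes. ATP5MC2 (chr12:53676084-53676333, minus strand) had the lowest log2 fold change of all members over all samples and 1 NRF1 core, 33 bases before the start. COX8A (chr11:63974370-63974619, plus strand) was lower and had 1 ETS core, 12 bases before the start. COX6A1 (chr12:120437863-120438112, plus strand), the member with the highest FPKM, held both kinds, with 2 NRF1 cores and 1 ETS core. ATP5F1C (chr10:7787927-7788176, plus strand), 1 of the 2 members called higher, held overlapping copies of the NRF1 core on both strands, the nearest 13 bases before the start. Each window ends at the RefSeq start, and GENCODE 29 places the outermost transcript start of each of these genes inside the window or before it.
ATP5MC2: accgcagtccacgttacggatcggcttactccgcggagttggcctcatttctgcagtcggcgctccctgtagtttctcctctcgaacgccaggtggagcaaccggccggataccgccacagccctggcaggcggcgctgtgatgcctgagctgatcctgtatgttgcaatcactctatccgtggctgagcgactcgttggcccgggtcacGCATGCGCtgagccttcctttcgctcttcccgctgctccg
COX8A: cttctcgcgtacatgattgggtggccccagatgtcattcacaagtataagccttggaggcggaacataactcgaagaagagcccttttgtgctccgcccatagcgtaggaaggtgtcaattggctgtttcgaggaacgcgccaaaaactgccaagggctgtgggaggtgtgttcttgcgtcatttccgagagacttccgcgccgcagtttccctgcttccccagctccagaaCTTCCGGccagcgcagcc
COX6A1: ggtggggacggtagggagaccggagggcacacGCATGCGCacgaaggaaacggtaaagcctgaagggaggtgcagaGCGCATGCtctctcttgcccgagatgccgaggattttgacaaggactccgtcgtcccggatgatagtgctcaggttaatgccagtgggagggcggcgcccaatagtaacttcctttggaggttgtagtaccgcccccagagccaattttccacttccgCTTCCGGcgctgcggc
ATP5F1C: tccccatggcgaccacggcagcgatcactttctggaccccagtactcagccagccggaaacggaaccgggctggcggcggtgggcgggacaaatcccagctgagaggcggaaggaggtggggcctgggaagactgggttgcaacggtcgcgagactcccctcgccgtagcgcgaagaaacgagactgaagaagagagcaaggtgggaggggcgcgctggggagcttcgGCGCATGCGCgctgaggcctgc

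Complex I, the NADH dehydrogenase, was lower in sum. Its 37 genes summed to an FPKM of 2158, 1964 and 2077 in the OV-BRCA1 samples and 2522, 2478 and 2692 in the NC samples, 19.4% lower. No test was run on the sums. With 3 against 3 samples, an exact permutation p for a single summed value cannot fall below 0.1. All 37 genes were tested. Of these, 17 were lower (45.9%, against 18.9% of all genes), none was higher (against 16.4%) and 20 did not pass. The median log2 fold change was -0.35 and became -0.25 when trends with transcript length and GC content were removed. The 7 nuclear core subunits, which carry the flavin and iron-sulfur centres, had a median of -0.38. Of these, NDUFS7, NDUFV1 and NDUFS3 were lower (3 of 7, 42.9%). The 30 accessory genes, which surround the core, had a median of -0.34, and 14 of them were lower (46.7%).

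NDUFS7 carries the last iron-sulfur cluster before coenzyme Q. Its FPKM was 27.4, 24.7 and 26.5 in the OV-BRCA1 samples and 61.1, 37.8 and 39.8 in the NC samples. The groups did not overlap, and NC 1 stood apart from the other NC samples. The log2 fold change was -0.76 (SE 0.18, adjusted p = 0.0193). The call was lost without OV-BRCA1 2 (adjusted p = 0.0608) or OV-BRCA1 3 (adjusted p = 0.0547), and with protein-coding transcripts only (log2 fold change -0.51, adjusted p = 0.547), which held 36.7% of the FPKM of this gene. NDUFV1, the flavin- and NADH-binding subunit, had an FPKM of 62.2, 53.2 and 52.0 against 82.5, 85.9 and 90.5 (log2 fold change -0.62, SE 0.08, adjusted p = 0.00203). With the most abundant NDUFV1 transcript alone the log2 fold change was -0.70 and did not pass (adjusted p = 0.148). NDUFV2, the iron-sulfur subunit beside it, differed little, with 120.1, 114 and 115 against 118, 118 and 123 (log2 fold change -0.04, SE 0.04, adjusted p = 0.506).

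Among the accessory genes, NDUFA2 (ENSG00000131495, chr5:140638740-140647785 of GRCh38, minus strand) fell most. It was at 48.7, 42.1 and 43.1 in the OV-BRCA1 samples and 75.0, 74.6 and 78.6 in the NC samples, with a wide gap between the groups. The log2 fold change was -0.76 (SE 0.07, adjusted p = 4.92e-04). NDUFB6, a subunit of the membrane arm, was at 25.8, 27.8 and 26.6 against 40.4, 42.0 and 43.2 (log2 fold change -0.63, SE 0.05, adjusted p = 4.26e-04). The most abundant complex I messages fell less. NDUFS5 had an FPKM of 161, 172 and 173 against 199.9, 219 and 218 (log2 fold change -0.33, SE 0.06, adjusted p = 0.00529). NDUFB11 had 125, 111 and 122 against 136, 137 and 138 (log2 fold change -0.20, SE 0.05, adjusted p = 0.0311). The NDUFB11 call was lost without OV-BRCA1 2 or 3 and without any single NC sample (adjusted p = 0.0558 to 0.0837). It was also lost with length and GC trends removed (log2 fold change -0.10, adjusted p = 0.182), with the most abundant transcript (-0.19, adjusted p = 0.133) and with median-of-ratios scaling (-0.17, adjusted p = 0.0506). Of the 8 accessory genes with a log2 fold change above 0, none passed. The nearest was NDUFV3 at 26.0, 26.7 and 24.1 against 22.9, 22.5 and 20.8 (log2 fold change 0.21, SE 0.07, adjusted p = 0.0534), and it passed in 5 alternatives, with median-of-ratios scaling among them (adjusted p = 0.038).

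**Figure D2:**
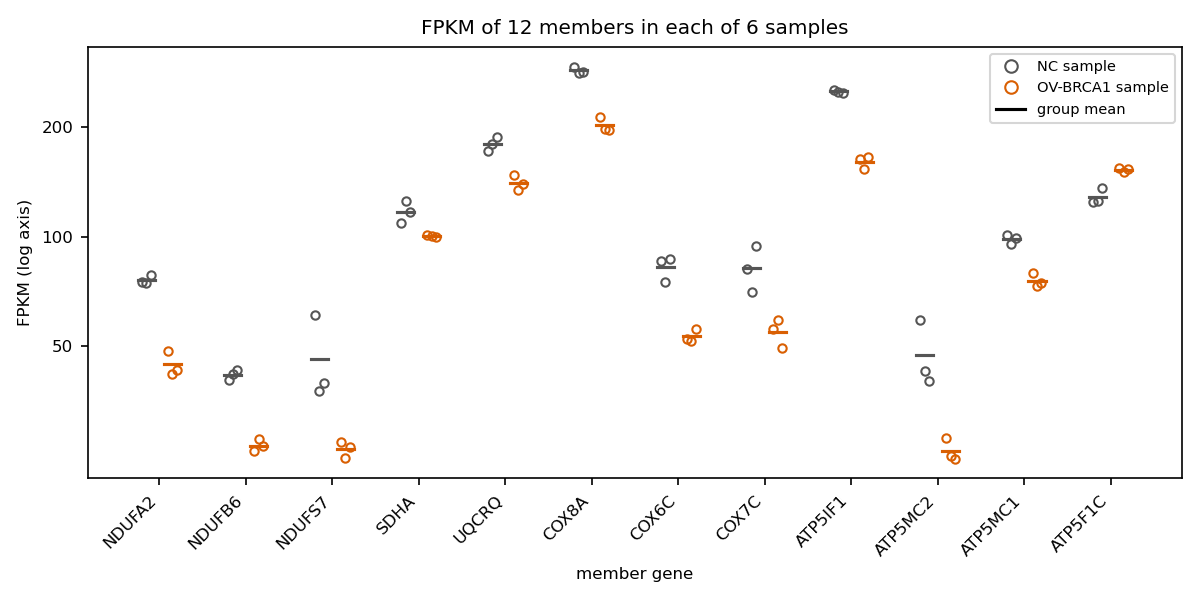
FPKM on a log axis of 12 members in each sample (grey circles NC, orange circles OV-BRCA1, short lines group means, n = 3 per group). The OV-BRCA1 circles lie below the NC circles in 11 of them and above in ATP5F1C, and NC 1 stands apart in NDUFS7 and ATP5MC2.

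Complex II, the succinate dehydrogenase, has only nuclear subunits and also belongs to the citric acid cycle. Its 4 genes summed to 235, 235 and 304 in the OV-BRCA1 samples and 262, 310.4 and 278 in the NC samples, so the groups overlapped. The catalytic flavoprotein SDHA was lower, with 101, 100.3 and 99.7 against 109, 125 and 117 (log2 fold change -0.22, SE 0.06, adjusted p = 0.03). This call rested on the sum over transcripts. With protein-coding transcripts only, 39.9% of its FPKM, the log2 fold change was 0.27 (adjusted p = 0.831), and with the most abundant transcript, a retained intron, 0.40 (adjusted p = 0.639). It was also lost without any single OV-BRCA1 sample and without NC 2 or 3 (adjusted p = 0.068 to 0.0804), and with median-of-ratios scaling (log2 fold change -0.18, adjusted p = 0.054). Genes named as SDHA pseudogenes had a summed FPKM of 17.3% of that of SDHA, so reads may be split among near-identical copies. The iron-sulfur subunit SDHB was at 76.6, 71.9 and 74.6 against 71.2, 69.5 and 69.7 (log2 fold change 0.08, SE 0.04, adjusted p = 0.2). The median of the 4 genes was -0.20, moved to -0.39 without OV-BRCA1 3, and to -0.03, -0.09, -0.05 and -0.12 without OV-BRCA1 1, OV-BRCA1 2, NC 2 and NC 3.

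Complex III, the cytochrome bc1 complex, which passes electrons from coenzyme Q to cytochrome c, was lower in sum. The 10 genes summed to 845, 782 and 789 in the OV-BRCA1 samples and 906, 901 and 934 in the NC samples, 11.8% lower. There were 5 lower genes, none higher and 5 that did not pass, with a median log2 fold change of -0.32. The lower genes were UQCR11, UQCRQ, UQCR10, UQCRH and UQCRC1. UQCRC1, a large core protein, had the smallest adjusted p of complex III, at 90.6, 91.9 and 86.0 against 114, 110.4 and 111 (log2 fold change -0.32, SE 0.05, adjusted p = 0.00298), and was called lower without each sample in turn. With protein-coding transcripts alone and with the most abundant transcript its log2 fold change was -0.65 and did not pass (adjusted p = 0.161 and 0.208). The other 4 lower genes encode small subunits. UQCRB, also a small subunit, was at 14.2, 15.1 and 22.4 against 21.7, 20.3 and 21.6 and did not pass (log2 fold change -0.31, SE 0.16, adjusted p = 0.189). UQCRQ, which lies next to cytochrome b, was at 147, 134 and 139 against 172, 179 and 187 (log2 fold change -0.36, SE 0.05, adjusted p = 0.00392). UQCR11 was at 61.4, 52.4 and 55.5 against 69.7, 72.8 and 76.2 (log2 fold change -0.37, SE 0.07, adjusted p = 0.0101). UQCR10 was at 72.1, 73.7 and 79.9 against 91.1, 99.2 and 93.9 (log2 fold change -0.33, SE 0.06, adjusted p = 0.00732). In UQCRQ, UQCR11 and UQCR10 the groups did not overlap, and in UQCRB they did.

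UQCRH, the hinge protein and the most abundant message of complex III, was at 201, 187 and 184 against 214, 219.9 and 234 (log2 fold change -0.22, SE 0.06, adjusted p = 0.0235). The UQCRH call was lost without OV-BRCA1 2 or 3 and without NC 2 or 3 (adjusted p = 0.0559 to 0.074), and at a log2 fold change of -0.18 with protein-coding transcripts (adjusted p = 0.0513) and with the most abundant transcript (adjusted p = 0.0725). The subunits that carry the redox centres of the nuclear part did not pass, with log2 fold changes above 0. CYC1, cytochrome c1, was at 140.2, 114 and 105 against 115, 89.0 and 98.5, with overlapping groups (log2 fold change 0.24, SE 0.13, adjusted p = 0.206). UQCRFS1, the Rieske iron-sulfur protein, was at 46.6, 42.6 and 43.3 against 40.1, 38.5 and 41.8 (log2 fold change 0.13, SE 0.06, adjusted p = 0.125). Genes named as UQCRFS1 pseudogenes had a summed FPKM of 28.1% of that of UQCRFS1.

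Complex IV, the cytochrome c oxidase, had the highest share of lower genes. Its 14 tested genes summed to 1692, 1597 and 1639 in the OV-BRCA1 samples and 1985, 1997 and 2056 in the NC samples, 18.4% lower. There were 11 lower genes (78.6%, against 18.9% of all genes) and 1 higher gene (7.14%, against 16.4%). The 2 others, COX5A and COX7A2L, did not pass, and the median log2 fold change was -0.31. COX6C was at 52.4, 51.7 and 55.7 against 85.8, 74.9 and 86.8 (log2 fold change -0.62, SE 0.07, adjusted p = 0.00133). COX7C was at 55.9, 59.2 and 49.6 against 81.3, 70.5 and 94.4 (log2 fold change -0.57, SE 0.12, adjusted p = 0.0127). Both encode small membrane subunits, and with the most abundant transcript alone their log2 fold changes were -0.60 and -0.58 with adjusted p above 0.05 (0.0565 and 0.0518). COX8A, another small membrane subunit, whose promoter with the ETS core is printed with the sequences, was at 213, 197 and 196 against 292, 281 and 283 (log2 fold change -0.50, SE 0.05, adjusted p = 6.47e-04).

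The gene with the highest FPKM among all members, COX6A1, changed little. It was at 445, 414 and 416 in the OV-BRCA1 samples and 479.6, 484 and 486 in the NC samples (log2 fold change -0.19, SE 0.04, adjusted p = 0.0179). The groups did not overlap, but the call was lost without OV-BRCA1 2 or 3 and without NC 2 or 3 (adjusted p = 0.0521 to 0.0624), and with length and GC trends removed (log2 fold change -0.11, adjusted p = 0.0643). COX4I1, which contacts the mitochondrially encoded catalytic subunit, was at 166, 165 and 156 against 184, 180.0 and 199 (log2 fold change -0.20, SE 0.05, adjusted p = 0.03). Its call was lost without any single OV-BRCA1 sample and without NC 1 or 3 (adjusted p = 0.0547 to 0.0884), and protein-coding transcripts alone gave -0.04 (adjusted p = 0.742) and median-of-ratios scaling -0.17 (adjusted p = 0.0525). COX5A, its partner, missed the threshold at 222, 209 and 226 against 234, 248 and 251 (log2 fold change -0.16, SE 0.05, adjusted p = 0.0508), and passed when scaled to the nuclear total (adjusted p = 0.0172). COX7A2L, a factor of respiratory supercomplexes, overlapped at 19.3, 16.9 and 25.4 against 29.4, 18.0 and 17.9 (log2 fold change -0.06, SE 0.23, adjusted p = 0.848).

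**Figure D3:**
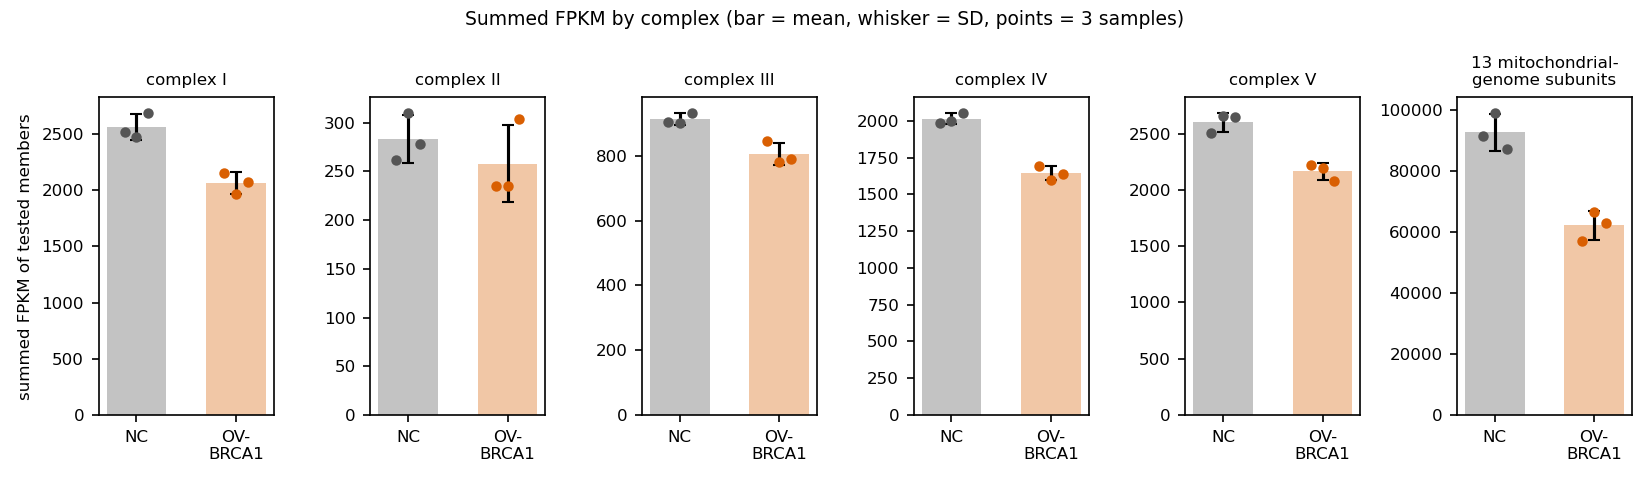
Summed FPKM of the tested genes of each complex and of the 13 subunits of the mitochondrial genome (bars are means, whiskers SD, points the 3 samples of each group, each panel with its own axis from 0). The groups do not overlap in complexes I, III, IV and V or in the mitochondrial set, and they overlap in complex II.

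Complex V, the ATP synthase, was lower in sum. The 20 tested genes summed to 2222, 2193 and 2076 in the OV-BRCA1 samples and 2504, 2656 and 2646 in the NC samples, 16.8% lower. There were 11 lower genes (55.0%, against 18.9% of all genes), 1 higher (5.00%, against 16.4%) and 8 that did not pass. The median log2 fold change was -0.30. In the membrane part, taken with the inhibitor, 8 of 11 tested genes were lower (72.7%) and none higher, with a median of -0.38. In the catalytic F1 head and the stalks, 3 of 9 genes were lower (33.3%) and 1 was higher (11.1%), with a median of -0.25. The membrane group held every ATP5 gene outside the head and stalks, with ATP5S (log2 fold change -0.00) and the readthrough gene ATP5MF-PTCD1 among them. The difference between these parts was not tested.

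ATP5IF1, the inhibitor that blocks the enzyme when it would hydrolyse ATP, had the smallest adjusted p of all members. It is gene ENSG00000130770 at chr1:28236109-28246906 on the plus strand. Its FPKM was 163, 153 and 165 in the OV-BRCA1 samples and 252, 249 and 248 in the NC samples, with little spread in either group. The log2 fold change was -0.64 (SE 0.04, adjusted p = 1.88e-04). ATP5F1D, the delta subunit of the central stalk, was at 36.2, 38.7 and 47.4 against 74.7, 51.6 and 56.5 (log2 fold change -0.56, SE 0.16, adjusted p = 0.0374). The ATP5F1D call was lost without NC 1 or 3 and without OV-BRCA1 1 or 2 (adjusted p = 0.0678 to 0.105), and with length and GC trends removed (log2 fold change -0.38, adjusted p = 0.125). It was also lost with protein-coding transcripts (-0.59, adjusted p = 0.0744) and with the most abundant transcript (-0.83, adjusted p = 0.173).

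The large subunits of the F1 head gave no lower call over all samples. ATP5F1B, the beta subunit, which holds the catalytic sites, was at 274, 307 and 185 against 268, 243 and 263 (log2 fold change -0.05, SE 0.18, adjusted p = 0.865). The OV-BRCA1 samples lay on both sides of the NC samples, and without OV-BRCA1 3 the log2 fold change was 0.17 (adjusted p = 0.153). ATP5F1A, the alpha subunit, was at 92.5, 114 and 91.8 against 106, 120.1 and 130.4 (log2 fold change -0.26, SE 0.11, adjusted p = 0.127), and passed as lower without OV-BRCA1 2 (log2 fold change -0.36, adjusted p = 0.0455). Its direction turned, without passing, with protein-coding transcripts (log2 fold change 0.91, adjusted p = 0.444) and with the most abundant transcript (1.79, adjusted p = 0.671). ATP5F1C, the gamma subunit that turns inside the head, was higher, at 154, 150.4 and 153 against 124, 125 and 136 (log2 fold change 0.25, SE 0.05, adjusted p = 0.0103). It was called higher without each sample in turn (adjusted p = 0.01 to 0.0368), but the most abundant transcript alone gave -0.09 (adjusted p = 0.573). ATP5MF, the most abundant message of complex V, was at 370.0, 372 and 396 against 408, 476 and 435 (log2 fold change -0.21, SE 0.07, adjusted p = 0.0492). The ATP5MF call was lost without any single OV-BRCA1 sample and without NC 2 or 3 (adjusted p = 0.0688 to 0.122). It was also lost with length and GC trends removed (log2 fold change -0.13, adjusted p = 0.124), with median-of-ratios scaling (-0.17, adjusted p = 0.0831) and with protein-coding transcripts (-0.21, adjusted p = 0.0645).

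Subunit c, which forms the rotating ring of complex V, is made from 3 genes that encode the same mature protein with different import sequences. ATP5MC2 was at 28.0, 25.0 and 24.6 in the OV-BRCA1 samples and 59.0, 42.8 and 40.3 in the NC samples. Over all samples, the ATP5MC2 log2 fold change of -0.83 (SE 0.15, adjusted p = 0.00694) was the lowest of all members. NC 1 stood apart from the other NC samples, so this rank leans on NC 1. With the most abundant ATP5MC2 transcript alone the log2 fold change was -0.42 (adjusted p = 0.251). ATP5MC1 was at 79.2, 73.3 and 74.5 against 101, 95.5 and 99.0 (log2 fold change -0.38, SE 0.05, adjusted p = 0.00233). For ATP5MC1 the most abundant transcript alone gave -0.49 (adjusted p = 0.314). ATP5MC3 was at 51.9, 47.8 and 55.7 against 51.2, 56.4 and 65.5, with overlapping groups (log2 fold change -0.15, SE 0.10, adjusted p = 0.31). The 3 log2 fold changes were not tested against each other.

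Isoforms and copies known mainly from heart and muscle, testis or other restricted tissues were near 0. Of the 9 such genes, 3 were tested and each had a mean FPKM below 2. COX6B2, the testis form of subunit VIb, was at 1.05, 0.972 and 0.744 in the OV-BRCA1 samples and 0.13, 0.158 and 0.362 in the NC samples (log2 fold change 0.66, SE 0.12, adjusted p = 0.0068). It entered the test only through the OV-BRCA1 group, so it had to be higher there. With a pseudocount of 0.1 its log2 fold change was 1.75 (adjusted p = 0.0104), the single member DEG of any alternative. COX6A2, the heart and muscle form of subunit VIa, was at 0.624, 0.597 and 0.864 against 1.2, 1.71 and 1.25 (log2 fold change -0.49, SE 0.12, adjusted p = 0.0226). Its call was lost without NC 2 and without OV-BRCA1 1 or 2 (adjusted p = 0.0579 to 0.0687), and with length and GC trends removed (log2 fold change -0.33, adjusted p = 0.0886).

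UQCRHL, a copy of UQCRH without introns, was at 1.04, 1.76 and 1.03 against 1.94, 1.8 and 1.7 (log2 fold change -0.32, SE 0.14, adjusted p = 0.126), and passed without OV-BRCA1 2 (adjusted p = 0.0218). COX4I2, the lung-enriched form of subunit IV, was listed at 0 in all samples. COX7A1, COX7B2, COX8C, NDUFA4L2 and ATP5MGL did not reach an FPKM of 0.5 in 3 samples, with a highest single value of 0.684 in NC 2 for NDUFA4L2. The readthrough genes, whose transcripts run into a neighbour, did not pass. ATP5MF-PTCD1 was at 2.02, 1.21 and 1.74 against 1.66, 3.68 and 4.18 (log2 fold change -0.61, SE 0.27, adjusted p = 0.129), and passed without NC 1 (log2 fold change -0.90, adjusted p = 0.0142). NDUFC2-KCTD14 was at 0.102, 1.01 and 0.621 against 0.0347, 0.483 and 0.633 (log2 fold change 0.17, SE 0.27, adjusted p = 0.652).

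Some members varied within a group because 1 transcript was listed high in 1 sample. NDUFB1, an accessory subunit of complex I, was at 85.4, 75.9 and 68.2 in the OV-BRCA1 samples and 96.2, 108 and 190.1 in the NC samples (log2 fold change -0.71, SE 0.25, adjusted p = 0.0721). In NC 3 the transcript ENST00000605997, of 336 bases, was at 173, and in the other samples it was below 0.01. The other NDUFB1 transcripts together were at 16.7 in NC 3 and at 68.2 to 108 elsewhere. NDUFB1 passed as lower without NC 3 (log2 fold change -0.41, adjusted p = 0.0449) and without NC 1 (log2 fold change -0.90, adjusted p = 0.048). SDHD, a membrane anchor of complex II, was at 40.8, 38.5 and 95.8 against 50.1, 96.9 and 46.0. Its transcript ENST00000525291 was at 42.3 in NC 2 and 0 elsewhere, and ENST00000528048 was at 38.7 in OV-BRCA1 3 and at most 0.484 elsewhere.

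NDUFS1, the largest complex I core subunit, was at 12.7, 12.8 and 28.3 against 21.9, 11.6 and 12.5. The transcript ENST00000449699 was at 17.9 in OV-BRCA1 3 and at most 0.266 elsewhere. SDHC, the other anchor of complex II, was at 16.5, 24.0 and 34.2 against 31.4, 18.7 and 45.3, and its transcript ENST00000342751 ranged from 3.31 to 31.1 across the samples. NDUFA5 was low in OV-BRCA1 2, where the transcript ENST00000378795 was at 5.35 against 20.8 to 22.5 in the other samples. None of these 5 genes passed the test over all samples, and all were picked for their range within a group after their values were seen. Of the 85 tested members, 9 had a most abundant transcript that is not typed as coding. Exon bases were shared with another gene in 50 of the 91 members, 27 on the same strand and 37 on the opposite strand, and no source used here states whether strand was used.

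**Figure D4:**
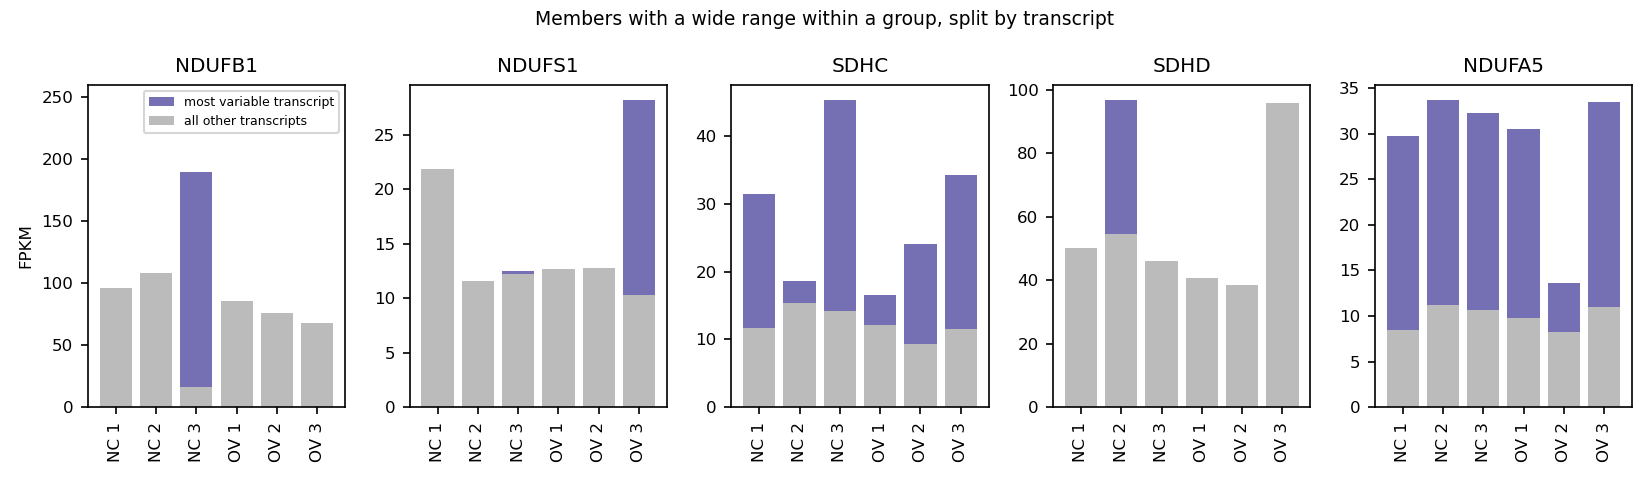
FPKM in each sample of 5 members with a wide range within a group (NC 1 to 3, OV-BRCA1 1 to 3, each panel with its own axis), with the most variable transcript in purple and all other transcripts of the gene in grey. In NDUFB1 the purple transcript is at 173 in NC 3 and below 0.01 in the other samples, and in SDHD it is at 42.3 in NC 2 and 0 in the others.

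The 13 subunits encoded by the mitochondrial genome were lower too. They summed to an FPKM of 57114, 66598 and 62832 in the OV-BRCA1 samples and 91509, 99142 and 87186 in the NC samples, 32.9% lower. All 13 were called lower, with a median log2 fold change of -0.63. The count was 8 without a filter on low values. It was 12 with the most abundant transcript and without NC 1, without NC 2 or without OV-BRCA1 1. MT-ATP6, a membrane subunit of complex V, was at 864, 1013 and 981 against 1843, 2129 and 1805. It was a DEG only by a narrow margin (log2 fold change -1.01, SE 0.09, adjusted p = 4.35e-04), just past the cut of 1. MT-CYB, cytochrome b of complex III, was at 1689, 1966 and 1862 against 3004, 3192 and 2909 (log2 fold change -0.72, SE 0.07, adjusted p = 5.88e-04). Transcripts of the mitochondrial genome made up 14.8% to 17.2% of all FPKM in the OV-BRCA1 group and 21.0% to 23.2% in the NC group. The part of this share in the members' lower values was not tested. FPKM is relative to all fragments, and relative to nuclear protein-coding genes alone the members took 1.93%, 1.89% and 1.88% in the OV-BRCA1 samples and 2.31%, 2.36% and 2.42% in the NC samples. Scaled to that total, 49 members were lower and 2 higher.

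The genes that build, connect and regulate the complexes did not move as a block. In 92 assembly, carrier and regulator genes, all tested, 21 were lower (22.8%, against 18.9% of all genes), 12 were higher (against 16.4%) and the median log2 fold change was -0.04. The counts were 12 lower without OV-BRCA1 2, and 6 higher without NC 1 or NC 3. Of 18 complex I assembly factors, 2 were higher (11.1%) and 3 lower (16.7%), both shares below those of all genes. NDUFAF2, a factor of late complex I assembly, was at 65.7, 71.9 and 71.0 against 39.7, 37.4 and 35.5 (log2 fold change 0.87, SE 0.06, adjusted p = 2.22e-04). NDUFAF8 was at 34.2, 33.9 and 33.5 against 38.3, 40.5 and 41.7 (log2 fold change -0.24, SE 0.05, adjusted p = 0.0145), and lost its call with length and GC trends removed (log2 fold change -0.12, adjusted p = 0.107). Of 4 complex II assembly factors, SDHAF3 was higher (25.0%, against 16.4% of all genes) and SDHAF4 lower (25.0%, against 18.9%). SDHAF3 had a log2 fold change of 0.30 (SE 0.08, adjusted p = 0.0345), and its call was lost without OV-BRCA1 1 or 3 and without NC 1 or 3 (adjusted p = 0.0884 to 0.0991), with length and GC trends removed (log2 fold change 0.21, adjusted p = 0.1) and with protein-coding transcripts (0.16, adjusted p = 0.156). SDHAF4, which chaperones the SDHA flavoprotein, was at 2.58, 2.87 and 2.2 against 4.84, 5.47 and 4.19 (log2 fold change -0.71, SE 0.12, adjusted p = 0.00539).

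For complex III, 3 of 6 assembly factors were lower and none higher. They were UQCC1, UQCC2 and UQCC3, which act on newly made cytochrome b. UQCC1 was at 12.5, 11.5 and 13.2 against 17.7, 17.5 and 16.4 (log2 fold change -0.44, SE 0.07, adjusted p = 0.00474), and UQCC2 had a log2 fold change of -0.45 (SE 0.08, adjusted p = 0.0066). For complex IV, 7 of 25 factors were lower (28.0%, against 18.9% of all genes) and 2 higher (against 16.4%). The higher ones were LRPPRC, which stabilizes mitochondrial messages, at 39.3, 37.3 and 38.1 against 27.0, 26.3 and 26.7 (log2 fold change 0.50, SE 0.05, adjusted p = 6.45e-04), and COA7 (log2 fold change 0.66, SE 0.07, adjusted p = 7.55e-04). For complex V, ATPAF2, a chaperone of the alpha subunit, was the only 1 of 4 called (25.0% lower, against 18.9% of all genes). It had a log2 fold change of -0.36 (SE 0.09, adjusted p = 0.0211) and lost the call without OV-BRCA1 2 (adjusted p = 0.0647) or OV-BRCA1 3 (adjusted p = 0.0604), and with protein-coding transcripts (log2 fold change -0.05, adjusted p = 0.789). TMEM70 had a log2 fold change of 0.17 (SE 0.19, adjusted p = 0.548).

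Among 14 genes of cytochrome c and coenzyme Q synthesis, 4 were lower (28.6%, against 18.9% of all genes) and 2 higher (14.3%, against 16.4%). CYCS, cytochrome c, was at 49.0, 45.1 and 49.4 against 37.1 in each NC sample (log2 fold change 0.36, SE 0.05, adjusted p = 0.00366). COQ4, which is needed for coenzyme Q synthesis, was at 35.0, 35.1 and 39.7 against 49.6, 49.9 and 52.4 (log2 fold change -0.46, SE 0.06, adjusted p = 0.00294). Among 21 regulators of respiratory gene expression, 5 were higher (23.8%, against 16.4% of all genes) and 2 lower (9.52%, against 18.9%). TFAM, which packages and transcribes mitochondrial DNA, was at 19.9, 18.4 and 21.1 against 14.6, 13.9 and 14.7 (log2 fold change 0.43, SE 0.07, adjusted p = 0.00473). GABPB1, a partner subunit of the ETS factor GABP, was at 14.0, 13.2 and 13.2 against 9.96, 10.7 and 10.4 (log2 fold change 0.35, SE 0.06, adjusted p = 0.00688). NRF1 was at 5.43, 6.78 and 5.46 against 6.65, 6.28 and 8.09 (log2 fold change -0.22, adjusted p = 0.217), with overlapping groups. With the most abundant transcript alone, SDHAF3, SDHAF4, UQCC1, UQCC2, ATPAF2, COQ4 and GABPB1 did not pass (adjusted p = 0.0695 to 0.807), and each kept the sign of its log2 fold change.

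**Figure D5:**
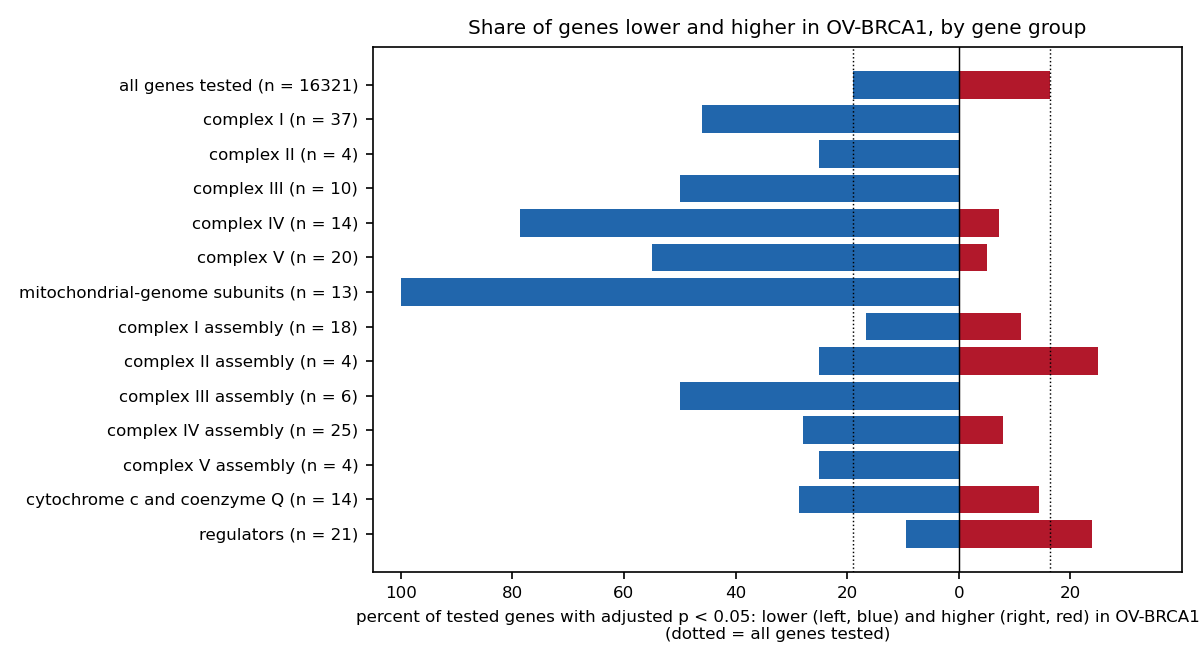
Percent of tested genes called lower (blue, to the left) and higher (red, to the right) in the OV-BRCA1 group for all genes tested, each complex, the mitochondrial-genome subunits and the assembly, carrier and regulator lists, with dotted lines at the shares of all genes (18.9% lower, 16.4% higher). Complex IV reaches 78.6% lower and the 13 mitochondrial-genome subunits were all lower, whereas the regulators have 9.52% lower and 23.8% higher.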

How the data were processed

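Transcriptome sequencing values of SiHa cells 48 h after transfection were used (OV-BRCA1, n = 3, and NC, n = 3, grouped by their labels). The authors filtered their reads for adapters and quality and deposited FPKM values for 199167 transcripts. The submitters' processing notes list FastQC, HISAT2 and hg38. The quantification tool, annotation and strand setting are not given in the sources used here.

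FPKM was summed over the transcripts of each gene. GENCODE release 29 gave names and positions (98.7% of shared transcripts lay at the same position), and 338 genes without a match are called by their identifier. Genes that reached FPKM 0.5 in 3 or more samples (16321) were tested on log2(FPKM + 1) with limma (version 3.58.1, R 4.3.3, moderated test with trend, two-sided, Benjamini-Hochberg over all genes tested). A fold change on this scale understates that of low genes. DEGs needed adjusted p below 0.05 together with an absolute log2 fold change above 1. The authors' count test with DESeq could not be repeated on FPKM. The study calls the 3 samples of a group biological replicates, and no source states whether they were separate transfections, so p-values measure the spread between these samples. The scripts were tested on simulated data.

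The members and gene lists were chosen with earlier results of these data known. Named in each complex were the 3 largest rises and falls among called members with separate groups and the 2 with the highest mean FPKM, further all restricted isoforms, readthrough genes and subunit c genes, and of each other list the 2 genes with the smallest adjusted p. Other genes were named after their values were seen. The alternatives were another pseudocount, other filters, scalings and gene values, removal of length and GC trends, a replicate block and leaving out each sample. Tables and plots were made with pandas 2.3.3, numpy 2.4.6 and matplotlib 3.10.9 under Python 3.11.15.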

Additional observations from a re-analysis of the deposited data

How the results depend on the processing

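With the most abundant transcript, 23 members were lower and 1 higher, 3291 genes were called in all, the median log2 fold change was 0.04 in complex II and -0.38 in complex IV, SDHA was at 0.40 and ATP5F1C at -0.09, and 10 assembly, carrier and regulator genes were lower and 7 higher. With protein-coding transcripts, 3694 genes were called, the median was -0.26 over members and -0.23 in complex I, and SDHA was at 0.27. With length and GC trends removed, 4 members were higher, and the median was -0.27 over members, -0.25 in complex I and -0.27 in complex III. The complex III median was -0.28 with median-of-ratios scaling and -0.35 with the nuclear total. Without a filter, the complex IV median was -0.20, 8 mitochondrial-genome subunits were lower and 7 assembly, carrier and regulator genes higher. A pseudocount of 0.1 gave 1 upregulated member DEG (COX6B2) and 1280 DEGs. The cause of these shifts was not tested. Of 61 genes followed singly, BRCA1 included, 18 lost their call with the most abundant transcript, 10 without a filter, 9 with protein-coding transcripts, 7 with length and GC trends removed and 4 with median-of-ratios scaling, and none with the pseudocount or the nuclear total. Of genes that did not pass in either case, the sign turned for ATP5F1B with the most abundant transcript and with protein-coding transcripts (0.21 in both) and without OV-BRCA1 3 (-0.19 to 0.17 over the left-out samples), for NDUFC2-KCTD14 without NC 1 (-0.02 to 0.41 over the left-out samples in which it could be tested) and for ATP5F1A (1.79 with the most abundant transcript and 0.91 with protein-coding transcripts), and NDUFS1, NDUFA5, SDHD and COX7A2L each turned in 1 or more alternatives. Without a filter the log2 fold changes stayed as they were and NDUFS7, NDUFB11, SDHA, UQCRH, COX6A1, COX4I1, ATP5F1D, ATP5MF, COX6A2 and SDHAF3 lost their call (adjusted p = 0.0526 to 0.12).

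Leaving out each sample gave 32 to 42 lower and 1 to 3 higher members. Medians ranged from -0.33 to -0.29 over members, from -0.35 to -0.28 in complex I, from -0.39 to -0.03 in complex II, from -0.31 to -0.25 in complex III, from -0.34 to -0.29 in complex IV and from -0.35 to -0.26 in complex V. Of all tested genes, 4268 to 4535 were called and 564 to 663 were DEGs, and 12 to 16 assembly, carrier and regulator genes were lower and 6 to 11 higher. COX6B2 could not be tested without any OV-BRCA1 sample. Across the alternatives, 23 to 49 members were called lower and 66 to 73 had a negative log2 fold change.

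Same-numbered samples did not deviate together (r of -0.024, 0.025 and 0.014 over 16321 genes), and not every sample correlated best with its own number. The values thus gave no sign of pairing by number, but they cannot show whether same-numbered samples were prepared together. With a replicate block, 10 of the 61 genes lost their call, 31 members were lower (30 of them among the 45), 2 were higher, and 13 assembly, carrier and regulator genes were lower and 7 higher.

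The study lists total reads per sample, but the number of fragments behind the FPKM values is only estimated. With 3 samples per group the calls are limited, so a member that did not pass is not shown to be equal. FPKM are relative values and give no absolute amount of RNA.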
